A study of Mus musculus with 7 samples.

Results

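Plasma was sampled 4 h after status epilepticus (SE), and the miRNAs carried in it by the protein Argonaute-2 (Ago2) were compared with those of control plasma of the same time-point. The comparison covers the 116 miRNAs, of 640 counted in the series, that reached 50 CPM (counts normalised to the library total) in both 4 h libraries. A further 8 miRNAs reached that level in SE 4 h and had 3 counts or fewer in control 4 h, and 4 miRNAs reached it in control 4 h and had 3 counts or fewer in SE 4 h. These 12 are described apart.

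The study used adult male C57BL/6JOlaHsd mice. In SE mice 0.3 μg of kainic acid was injected into the amygdala, with midazolam or lorazepam at 8 mg/kg given after 40 min, and control mice were injected with PBS at the same site. Plasma from 10 mice, 50 μL from each, was pooled for every library, Ago2 was immunoprecipitated from it, and the small RNA bound to Ago2 was sequenced. The libraries used are SE 4 h, control 4 h, and the control pools of 8 h and 24 h, with SE 8 h and SE 24 h for the later time-points. The sources used here state the benzodiazepine for SE mice only, so that its effect and that of SE cannot be told apart. With 1 pool of 10 mice on each side, no difference has a replicate check, and the differences are described by their size without a test. The 3 control pools show how far control levels lay apart, but they were taken at different times and are not replicates.

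An miRNA is a short RNA that guides an Argonaute protein to messenger RNAs, mostly through its seed, the bases 2 to 8 counted from its 5′ end, and the paired messengers are then repressed or degraded. In blood plasma, Argonaute proteins shield miRNAs from nucleases outside of cells, and much of the plasma miRNA comes from blood cells, vessel walls and organs such as the liver and gut. Ago2 is the Argonaute that can also cut RNA, and it matures miR-451a, an miRNA of red blood cells, without the enzyme Dicer.

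The mature sequences that the comparison turned on are given 5′ to 3′ with the seed in capitals, as RefSeq lists them with GRCm38.p6. RefSeq sequences were matched for 551 of the 640 miRNAs and for 98 of the 116 described here. Among those without a match were miR-143-3p, miR-532-5p, miR-320-3p, miR-1957a, miR-5112 and miR-486b-5p. The first set holds miRNAs that were higher in SE 4 h than in all 3 controls on the scale used below, beginning with relatives that share a seed.
miR-152-3p: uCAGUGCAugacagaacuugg
miR-148a-3p: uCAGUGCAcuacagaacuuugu
miR-10a-5p: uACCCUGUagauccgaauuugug
miR-10b-5p: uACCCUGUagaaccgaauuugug
miR-30a-5p: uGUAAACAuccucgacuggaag
miR-30e-5p: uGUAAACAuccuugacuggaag
miR-182-5p: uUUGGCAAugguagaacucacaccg
miR-29a-3p: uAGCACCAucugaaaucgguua
miR-186-5p: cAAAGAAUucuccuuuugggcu
miR-199b-3p: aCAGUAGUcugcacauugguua

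The second set holds miRNAs that were lower in SE 4 h than in all 3 controls, beginning with those rich in G and C.
miR-2137: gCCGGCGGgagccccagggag
miR-6236: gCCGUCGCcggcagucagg
miR-6240: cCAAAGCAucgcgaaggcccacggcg
miR-5108: gUAGAGCAcuggaugguuu
miR-181d-5p: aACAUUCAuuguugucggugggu
miR-19b-3p: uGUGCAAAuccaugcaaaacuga
miR-425-5p: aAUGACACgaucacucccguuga
let-7b-5p: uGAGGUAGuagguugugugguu

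The third set holds relatives that share a seed and lay apart in the comparison. miR-181a-5p and miR-181c-5p share theirs with miR-181d-5p, let-7f-5p and miR-98-5p theirs with let-7b-5p, and the other pairs share one between them.
miR-181a-5p: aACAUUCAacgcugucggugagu
miR-181c-5p: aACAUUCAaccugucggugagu
let-7f-5p: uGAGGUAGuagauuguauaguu
miR-98-5p: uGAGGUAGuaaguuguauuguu
miR-25-3p: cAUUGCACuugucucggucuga
miR-92a-3p: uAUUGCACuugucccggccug
miR-103-3p: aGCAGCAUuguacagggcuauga
miR-107-3p: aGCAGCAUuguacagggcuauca
miR-130a-3p: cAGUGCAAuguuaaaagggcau
miR-130b-3p: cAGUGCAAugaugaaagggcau

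The libraries differed in depth. The SE 4 h library held 5405357 counts and the control libraries 2043220 at 4 h, 3529563 at 8 h and 3412752 at 24 h. Low counts were not spread evenly but gathered around a value of each library, which was 37.6 counts in SE 4 h and, in the controls, 102 counts at 4 h, 60.2 at 8 h and 55.1 at 24 h. This value is called 1 unit here. A unit was worth 58.7 CPM of control 4 h but 8.83 CPM of SE 4 h, so that the limit of 50 CPM, 103 counts in control 4 h, was close to 1 unit there. In all, control 4 h held 19971 units and SE 4 h 143832. The reads carried no molecular identifiers, and the 95% intervals given below are exact binomial intervals on units. What gives rise to the unit is not given in the sources used here, and the intervals hold only as far as a unit stands for 1 independent molecule. They cover counting error only, not the spread between pools.

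Levels are CPM after TMM scaling in edgeR, which trims extreme ratios before it sets the library sizes, and a ratio is the log2 of SE 4 h over control 4 h on that scale. The 4 other scalings tried lowered every ratio by a constant. The shift was -0.11 with plain library sizes, -0.13 with the size factors of DESeq2, -0.16 with TMM over the 2 libraries of 4 h and -0.55 with library sizes that left out miR-486b-5p. A positive ratio under 0.55 is therefore negative in the last scaling, and no negative ratio turns positive in any of them. These shifts are those of the 4 h pair. Against control 8 h and control 24 h, plain library sizes lower SE 4 h by more. The TMM factors were 0.788 for SE 4 h, 0.853 for control 4 h, 1.22 for control 8 h and 1.16 for control 24 h.

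The 116 miRNAs were spread around a small positive ratio, and more of them were higher in SE 4 h than lower. Their median ratio was 0.21, with quartiles of -0.39 and 0.72, and it was -0.34 in the scaling without miR-486b-5p. By at least 1.5-fold, 37 miRNAs were higher in SE 4 h (31.9% of those described) and 21 were lower (18.1%), while 58 lay within 1.5-fold. The interval on units lay above no difference for 21 of the 37 and below it for 9 of the 21. In the scaling without miR-486b-5p the numbers were 14 higher and 48 lower. In every scaling tried, 14 of the 37 stayed higher by 1.5-fold, and all of the 21 stayed lower, as the direction of the shifts requires.

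**Figure D1:**
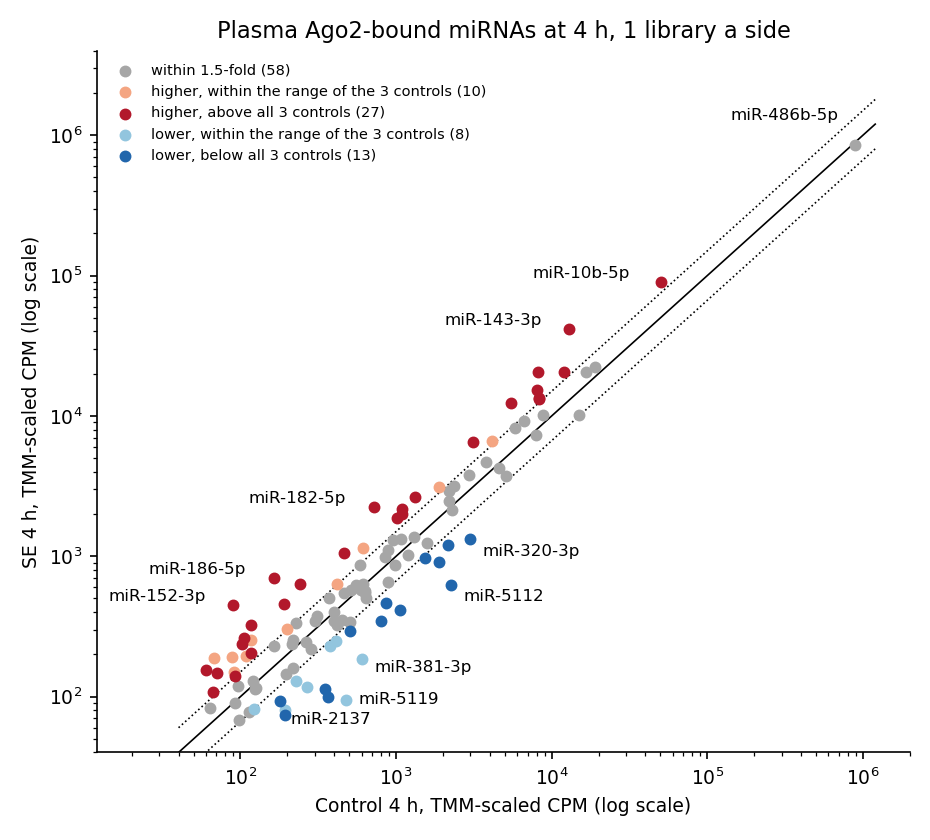
TMM-scaled CPM of the 116 miRNAs in control 4 h (horizontal, log scale) and SE 4 h (vertical, log scale), 1 pooled library a side. The solid line is equality, the dotted lines are 1.5-fold, and colours separate the 27 higher and 13 lower miRNAs that also lay outside all 3 controls from the 10 and 8 that did not; the scaling without miR-486b-5p would move all points down by 0.55 on the log2 scale.

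The control pools themselves differed widely, which limits what the 4 h pair can show. The 3 controls spanned at least 1.5-fold for 82 of the 116 miRNAs, and their median span was 1.8-fold. SE 4 h lay above all 3 controls for 45 miRNAs (38.8%), below all 3 for 21 (18.1%), and within their range for 50 (43.1%). Both criteria together, a ratio of at least 1.5-fold and a level outside all 3 controls, were met by 27 miRNAs on the higher side (23.3%) and by 13 on the lower side (11.2%). Of the 27, 18 had an interval above no difference, and of the 13, 7 had one below it. SE 4 h was the highest of all 7 libraries, the later SE pools included, for 17 of the 27, and the lowest of all for 6 of the 13. Against control 8 h, 43 miRNAs were higher by 1.5-fold (37.1%) and 8 lower (6.90%). Against control 24 h, 41 were higher (35.3%) and 22 lower (19.0%), so the number of lower miRNAs depended on the control it was counted against. The balance also depended on the scaling, since with plain library sizes 19 lay above all 3 controls and 34 below, and without miR-486b-5p 14 above and 45 below. Both criteria were then met by 11 higher and 17 lower miRNAs, and by 8 and 32. Of the 27 and 13, 8 and 13 met both in every scaling. Unless stated otherwise, places among the controls given below are on the TMM scale.

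The 10 most abundant of the 116 held 87.6% of the counts of SE 4 h and 88.9% of those of control 4 h. Most of this was miR-486b-5p, an miRNA of red blood cells and muscle, with 67.5% of SE 4 h and 76.1% of control 4 h. Its level was 857231 CPM in SE 4 h, and in the controls it was 891856 CPM at 4 h, 552303 at 8 h and 579385 at 24 h, for a ratio of -0.06. On this scale both 4 h pools lay above the later controls, and the 4 h pair differed by less than 1.5-fold. As a share of library counts, control 8 h held 67.5% and control 24 h 67%, so that only control 4 h stood apart. miR-486a-5p, which has the same mature sequence, had 0 counts in both, so that all such reads stood under miR-486b-5p.

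The next most abundant was miR-10b-5p, which lies in the Hoxd gene cluster, on chromosome 2 of GRCm38 (74726074 to 74726096, plus strand), in introns of Hoxd3 and Hoxd4. It was measured at 90114 CPM in SE 4 h, and the controls were at 50762, 35090 and 24971 CPM at 4 h, 8 h and 24 h. Its ratio was 0.83, with an interval of 0.73 to 0.93. miR-10a-5p, its relative from the Hoxb cluster on chromosome 11 (96317186 to 96317208, plus strand), was at 20603 CPM in SE 4 h and at 8191, 7976 and 8804 in the 3 controls. Its ratio was 1.33, with an interval of 1.08 to 1.58, and its 3 controls lay close together, with SE 4 h well above them. The sequences printed above differ by 1 base, U12A counted from the 5′ end of miR-10a-5p, and the alignment allowed 2 mismatches, so the split of reads between them is uncertain, although both were higher. miR-10a-5p stayed higher by 1.5-fold in every scaling, and miR-10b-5p did not in the one without miR-486b-5p.

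Of the other abundant miRNAs, 3 were higher by 1.5-fold and above all 3 controls besides miR-143-3p, which is described with the largest ratios. miR-192-5p, an miRNA of liver and gut, was at 20720 CPM in SE 4 h and at 12050, 13410 and 14443 CPM in control 4 h, 8 h and 24 h, a ratio of 0.78. miR-181a-5p, which is known for setting the signalling threshold of T cells and is also abundant in brain, was at 15240 CPM in SE 4 h and at 7995, 10561 and 10655 CPM in the controls, a ratio of 0.93. miR-27b-3p was at 13514 CPM in SE 4 h and at 8313, 5950 and 5746 CPM in the controls, a ratio of 0.70. None of these 3 stayed higher by 1.5-fold without miR-486b-5p. With plain library sizes miR-192-5p and miR-181a-5p lay below control 8 h and control 24 h.

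The remaining 3 of the most abundant lay within 1.5-fold. miR-22-3p was at 20687 CPM in SE 4 h and at 16694, 15510 and 13689 in the controls, above each of them, with a ratio of 0.31 that turns negative without miR-486b-5p. With plain library sizes it lay below control 8 h. let-7f-5p was at 22151 CPM in SE 4 h and at 19029, 24444 and 28449 in the controls, within their range. miR-92a-3p, of the miR-17-92 cluster, was at 10214 CPM in SE 4 h and at 15084, 9446 and 13057 in the controls, also within their range, with a ratio of -0.56 and an interval of -0.76 to -0.36. With plain library sizes it lay below all 3 controls.

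The largest ratio among miRNAs above all 3 controls was that of miR-152-3p, whose family is known for targeting the DNA methyltransferase Dnmt1. It lies on chromosome 11 (96850439 to 96850459, plus strand) in an intron of Copz2. It was at 448 CPM in SE 4 h and at 90.1, 140 and 72.7 CPM in control 4 h, 8 h and 24 h. Its ratio was 2.31, or 4.97 times control 4 h. Control 4 h held 157 counts, or 2 units, against 51 units in SE 4 h, and the interval of 0.01 to 5.02 barely lay above no difference. Its relative miR-148a-3p, with the same seed, was at 2641 CPM in SE 4 h and at 1323, 1706 and 807 CPM in the controls, a ratio of 1.00 with an interval of 0.35 to 1.65. Both were higher than all controls with TMM scaling, but miR-148a-3p no longer lay above control 8 h with plain library sizes. miR-152-3p stayed higher by 1.5-fold in every scaling.

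miR-186-5p, encoded in an intron of the splicing factor gene Zranb2 on chromosome 3 (157544285 to 157544306, plus strand), followed with a ratio of 2.11. It was at 703 CPM in SE 4 h, and the controls were at 163, 443 and 670 CPM. The pool that stood apart was control 4 h, with 3 units, since SE 4 h and control 24 h nearly met. SE 4 h no longer lay above all controls in every scaling.

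miR-143-3p, an miRNA of vascular smooth muscle, had the third of these ratios and the most reads behind it. It was at 41308 CPM in SE 4 h and at 12938, 11666 and 10544 CPM in control 4 h, 8 h and 24 h. Its ratio was 1.67, or 3.19 times control 4 h, with an interval of 1.48 to 1.88 on 4680 and 220 units. The 3 controls lay within a narrow range and SE 4 h far above it, and the call held in every scaling. Its partner from the same transcript, miR-145a-5p, did not reach 50 CPM in SE 4 h. It was at 12.4 CPM there on 53 counts and at 51.6 CPM in control 4 h on 90 counts, each about 1 unit. The other arm of that hairpin, miR-145a-3p, lay the other way, at 41.3 CPM in SE 4 h on 176 counts and with 0 counts in control 4 h.

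miR-182-5p, of the miR-183 cluster that is prominent in sensory cells, lies on chromosome 6 (30165962 to 30165986, minus strand) outside of other annotated genes. It was at 2243 CPM in SE 4 h and at 721, 895 and 657 CPM in the controls. Its ratio was 1.64, with an interval of 0.84 to 2.64 on 254 and 12 units. SE 4 h again lay far above controls that were close to each other. Of its cluster, miR-183-5p was at 6.34 CPM in SE 4 h with 0 counts in control 4 h, and miR-96-5p had 0 counts in both.

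The 8 further miRNAs named among the 12 largest such ratios had fewer reads in control 4 h, between 1 unit and 8 units, apart from miR-10a-5p. miR-532-5p, of an X-linked miRNA cluster, was at 324 CPM in SE 4 h and at 116, 205 and 192 CPM in the controls, a ratio of 1.48 with an interval of -0.48 to 4.57. miR-29a-3p, known for targeting collagens, was at 634 CPM and at 242, 386 and 396 CPM in the controls, a ratio of 1.39 with an interval of 0.02 to 3.35. miR-199b-3p, encoded on the opposite strand of an intron of Dnm1, was at 1048 CPM and at 463, 429 and 193 CPM in the controls, a ratio of 1.18 with an interval of 0.14 to 2.41. For these 3 the call and the place above all controls held in every scaling.

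miR-30a-3p was at 154 CPM in SE 4 h and at 59.7, 96.7 and 83.1 CPM in the controls, a ratio of 1.37, with 1 unit in control 4 h. It was the member nearest to the limit, with 50.9 CPM of the plain total in control 4 h. miR-15a-5p, which targets the survival gene Bcl2 and lies in an intron of Dleu2, was at 455 CPM and at 189, 220 and 348 CPM in the controls, a ratio of 1.27. miR-21a-3p, the passenger arm of the injury-responsive miR-21, was at 261 CPM and at 106, 165 and 243 CPM in the controls, a ratio of 1.30. miR-351-5p, which has the miR-125 seed, was at 238 CPM and at 103, 165 and 226 CPM in the controls, a ratio of 1.21. For miR-21a-3p and miR-351-5p the highest control, 24 h, almost met SE 4 h, and the intervals of all 4 included no difference. Of these 4, only miR-30a-3p stayed above all 3 controls in every scaling.

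**Figure D2:**
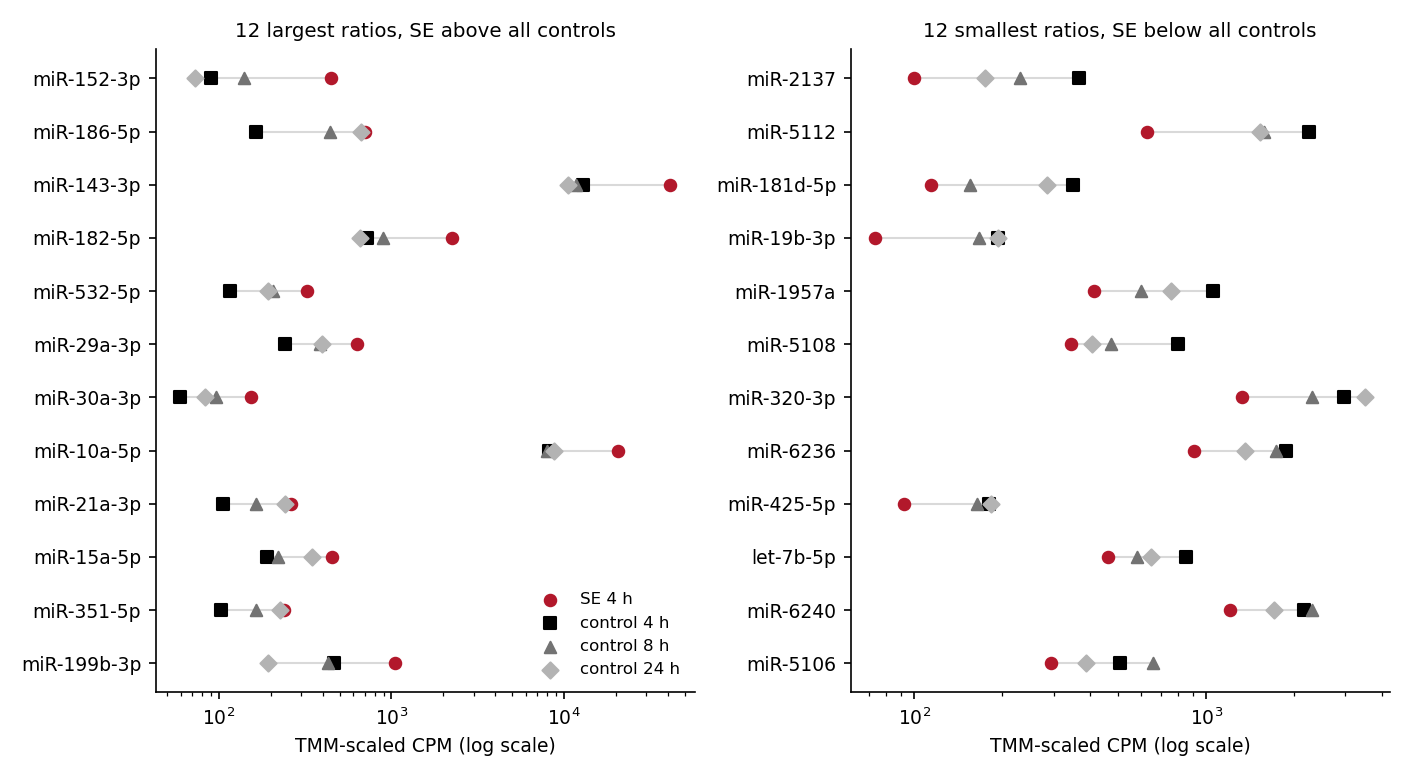
TMM-scaled CPM (horizontal, log scale) of the 12 miRNAs with the largest ratios among those above all 3 controls (left) and the 12 with the smallest ratios among those below all 3 controls (right), 1 point per pooled library. For miR-143-3p, miR-182-5p and miR-10a-5p the controls lie close together with SE 4 h (circles) apart from them, and for miR-186-5p and miR-21a-3p control 24 h lies beside SE 4 h.

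On the lower side, miR-2137 had the smallest ratio among miRNAs below all 3 controls. It lies on the X chromosome (72992113 to 72992133, plus strand) in an intron of Zfp185. It was at 99.6 CPM in SE 4 h and at 366, 230 and 175 CPM in control 4 h, 8 h and 24 h. Its ratio was -1.88, with an interval of -3.42 to -0.14 on 11 and 6 units. miR-5112 was at 628 CPM in SE 4 h and at 2246, 1579 and 1527 CPM in the controls, a ratio of -1.84 with an interval of -2.42 to -1.22. For miR-5112 the control level was 38 units, and SE 4 h lay far below each of the 3 controls.

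Other entries that miRBase added late, under numbers of 1000 or above, were also lower. miR-1957a was at 412 CPM in SE 4 h and at 1054, 598 and 755 CPM in the controls, a ratio of -1.35. miR-6236 was at 911 CPM and at 1878, 1736 and 1361 CPM in the controls, a ratio of -1.04 with an interval of -1.63 to -0.43. miR-6240 was at 1208 CPM and at 2168, 2306 and 1708 CPM in the controls, a ratio of -0.84 with an interval of -1.38 to -0.28. In each of these 3 SE 4 h was below every control and the interval was below no difference. miR-5108 and miR-5106 were lower in the same way, at 344 CPM against 406 to 803 CPM and at 294 CPM against 386 to 657 CPM, and the interval of miR-5106 included no difference.

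In all, 13 of the 244 counted miRNAs with such numbers were among the 116. Of these 13, 9 were lower by 1.5-fold in SE 4 h, where 18.1% of all 116 were, and 7 lay below all 3 controls, where again 18.1% did. The 1 that was higher was miR-1198-5p, at 1.12, where 31.9% of all 116 were higher. Their median ratio was -0.84, against 0.21 for all 116, and the 9 stayed lower in every scaling. The lowest of them, miR-5119, was at 94.9 CPM in SE 4 h and at 478 CPM in control 4 h, a ratio of -2.33. The other controls were at 77 and 188 CPM. SE 4 h thus lay within the range of the controls with TMM scaling, but below all 3 with plain library sizes.

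miR-320-3p, which is made without the enzyme Drosha, was lower than all controls on a firmer count. It was at 1322 CPM in SE 4 h and at 2968, 2307 and 3506 CPM in the controls. Its ratio was -1.17, with an interval of -1.64 to -0.69 on 150 and 51 units. The other arm of its hairpin, miR-320-5p, was under the limit, at 11 CPM in SE 4 h and at 178 CPM in control 4 h.

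Members of established families were also below all controls. miR-181d-5p was at 114 CPM in SE 4 h and at 351, 155 and 284 CPM in the controls, a ratio of -1.63. miR-19b-3p, of the miR-17-92 cluster, was at 73.5 CPM and at 193, 167 and 193 CPM in the controls, a ratio of -1.39. miR-425-5p was at 92.3 CPM and at 180, 164 and 183 CPM in the controls, a ratio of -0.96. The controls of miR-19b-3p and miR-425-5p lay close together with SE 4 h apart, yet each rested on 3 units in control 4 h, and the intervals of all 3 included no difference. miR-130a-3p was at 977 CPM and at 1534, 1460 and 2614 CPM in the controls, a ratio of -0.65.

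The let-7 family, whose members restrain growth and are abundant in differentiated cells, had 9 members among the 116. Their median ratio was -0.23, 4 lay below all 3 controls and none above, where 18.1% of all 116 lay below and 38.8% above. let-7b-5p was at 461 CPM in SE 4 h and at 855, 579 and 647 CPM in the controls, a ratio of -0.89, and was the only one lower by 1.5-fold. let-7a-5p was at 3724 CPM in SE 4 h and at 5088, 4351 and 5218 CPM in the controls, a ratio of -0.45 with an interval of -0.79 to -0.11. The 2 others below all controls, let-7c-5p and let-7g-5p, had ratios of -0.10 and -0.23. miR-98-5p, which carries the same seed, had a ratio of 1.47 on 1 unit in control 4 h, and its 187 CPM in SE 4 h lay within the range of the controls, between 67.7 and 306 CPM. Family members differ by few bases, let-7a-5p from let-7f-5p by G12A alone, and reads could be split among them.

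Relatives with one seed did not all lie on one side. Of the 116 miRNAs, the 98 with a sequence held 15 groups of 2 or more that share a seed. These groups had 42 members, and 3 of the groups had calls both ways. Relatives without a sequence, such as miR-30d-5p, are not counted in them. In the let-7 group these were miR-98-5p and let-7b-5p. In the miR-181 group miR-181a-5p was higher, at 0.93, and miR-181d-5p lower, at -1.63. In the miR-130 pair miR-130b-3p was higher, at 0.61, and miR-130a-3p lower, at -0.65, but miR-130b-3p lay within the range of the controls. Groups whose members were all higher by 1.5-fold were miR-148a-3p and miR-152-3p, miR-10a-5p and miR-10b-5p, and miR-27a-3p and miR-27b-3p, at 0.91 and 0.70. Of these 6, miR-27a-3p was the one not above all controls with TMM scaling. Only miR-152-3p and miR-10a-5p kept the call without miR-486b-5p.

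Neighbours on a chromosome were also compared. miR-181c-5p and miR-181d-5p lie 165 bases apart on chromosome 8, in the Nanos3 locus, and had ratios of 0.57 and -1.63. miR-191-5p and miR-425-5p lie 464 bases apart on chromosome 9 and had ratios of 0.21 and -0.96. In the miR-106b-25 cluster, in the gene Mcm7 on chromosome 5, miR-25-3p had a ratio of 1.04 with an interval of 0.63 to 1.46, and miR-93-5p one of -0.21. miR-25-3p was at 6479 CPM in SE 4 h and at 3143, 4786 and 4877 CPM in the controls, above each of them. With plain library sizes it lay below control 8 h and control 24 h. miR-93-5p was at 545 CPM and at 632, 492 and 953 CPM in the controls. Among 10 hairpins with both arms described, 6 had both arms on one side of no difference. One hairpin had opposite calls, miR-181a-5p at 0.93 and miR-181a-2-3p at -0.71, and the 3p arm lay within the range of the controls. That hairpin lies on chromosome 2, but miR-181a-5p is also encoded on chromosome 1. Its reads can therefore come from either locus, and the pair does not compare the arms of a single hairpin. The same holds for miR-181b-5p and miR-181b-2-3p, among the 10.

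Further families were mostly higher. Of 4 members of the miR-30 family on their 5p arm, miR-30a-5p and miR-30e-5p were higher by 1.5-fold. miR-30a-5p was at 12270 CPM in SE 4 h and at 5513, 8763 and 7103 CPM in the controls, a ratio of 1.15 with an interval of 0.85 to 1.47. The call held in every scaling, but with plain library sizes SE 4 h lay below control 8 h. miR-30e-5p had a ratio of 0.88, miR-30d-5p one of 0.42 and miR-30c-5p one of -0.12. Of the miR-23/27/24 clusters, which are active in vessel walls, miR-24-3p (0.82), miR-27a-3p and miR-27b-3p were higher by 1.5-fold and miR-23a-3p was at 0.20, with a median of 0.76 that stays positive in each scaling.

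The relatives miR-103-3p and miR-107-3p, which lie in introns of pantothenate kinase genes, had ratios of -0.38 and 0.68. miR-107-3p was at 13180 CPM in SE 4 h and at 8231, 6095 and 2864 CPM in the controls, above each of them. miR-103-3p was at 219 CPM and at 285, 231 and 308 CPM in the controls, below each of them. They differ by G22C alone, near the 3′ end, so that reads could fall to either. miR-101a-3p and miR-101b-3p had ratios of 0.88 and 0.61, and miR-101a-3p lay above all 3 controls.

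**Figure D3:**
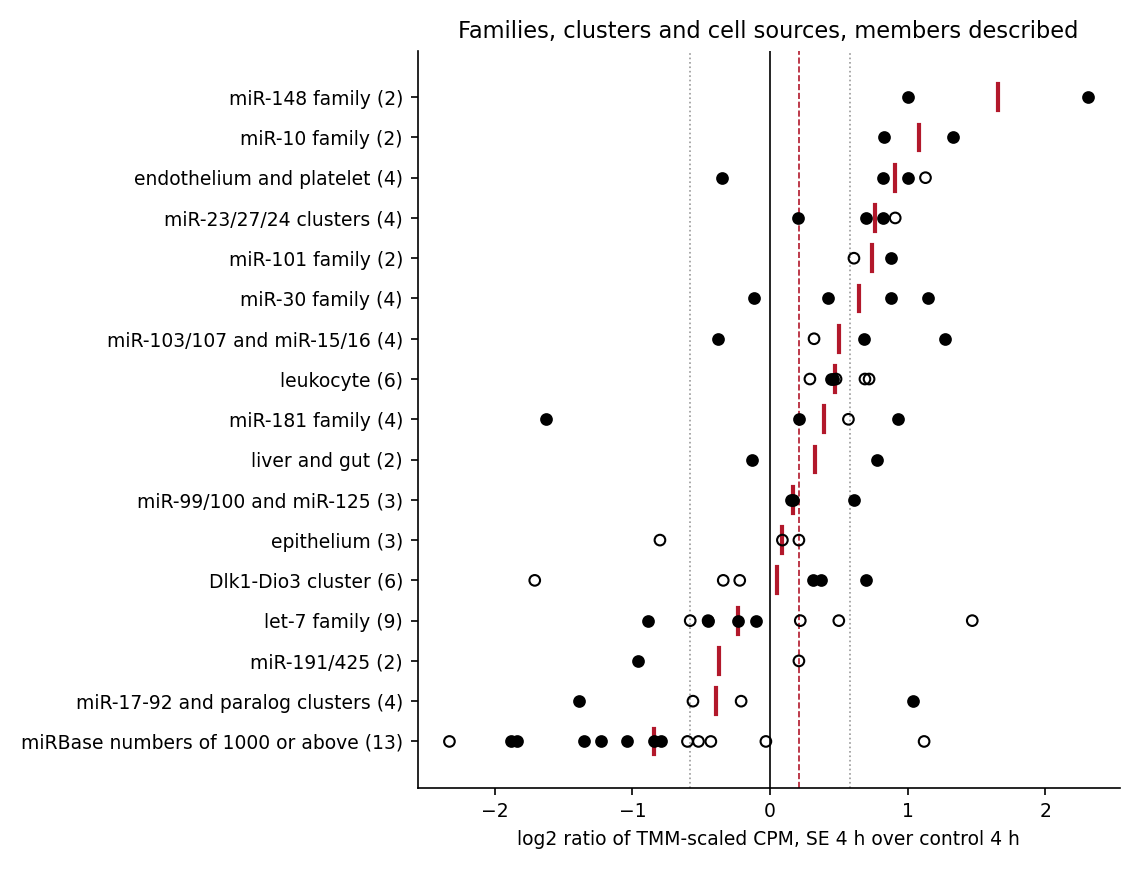
Log2 ratio of TMM-scaled CPM, SE 4 h over control 4 h (horizontal), for members of families, clusters and cell sources, with the number of members described in brackets. Filled points lie outside all 3 controls, open points within their range; red bars are medians, the dashed line is the median of the 116 miRNAs (0.21), the dotted lines are 1.5-fold, and the scaling without miR-486b-5p moves every point by -0.55. Among these lists of 2 or more members, entries numbered 1000 or above have the lowest median (-0.84) and the miR-148 family, with miR-152-3p, the highest (1.66).

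The lists by cell source address where the plasma miRNAs may come from. A plasma level cannot tell how many cells released an miRNA from how much each released. Of red blood cell miRNAs, only miR-486b-5p was among the 116. miR-451a had 47 counts in SE 4 h, and 3, 39 and 81 counts in the controls of 4 h, 8 h and 24 h. Its ratio of counts to miR-23a-3p, a measure used for haemolysis, was 0.032 in SE 4 h and 0.00575, 0.051 and 0.0827 in the controls. SE 4 h thus lay within the controls, and control 4 h was the lowest. The counts of miR-451a are few beside units of 37.6 counts in SE 4 h and 102, 60.2 and 55.1 in the controls. The order of the pools is therefore uncertain. The study had screened its plasma samples for haemolysis by absorbance. The part of red cell RNA in the differences was not tested.

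Of 8 leukocyte miRNAs counted, 6 were among the 116, all with positive ratios, from 0.29 to 0.72, and a median of 0.47, which turns negative without miR-486b-5p. Both arms of miR-142a, found throughout blood cells, were higher by 1.5-fold. miR-142a-5p was at 6680 CPM in SE 4 h and at 4127, 5182 and 8911 CPM in the controls, and miR-142a-3p at 150 CPM and at 90.7, 167 and 340 CPM, both within the range of the controls. miR-223-3p, of myeloid cells, was at 229 CPM and at 164, 212 and 326 CPM in the controls, a ratio of 0.48. miR-150-5p, of mature lymphocytes, had a ratio of 0.29. miR-146a-5p and miR-146b-5p, which restrain NF-κB signalling, lay above all 3 controls with ratios of 0.46 and 0.44. Neither did so with plain library sizes.

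Of the endothelial and platelet miRNAs, both arms of miR-126a and miR-24-3p were higher by 1.5-fold, where 31.9% of all 116 were. miR-221-3p was at -0.35. miR-126a-5p was at 2177 CPM in SE 4 h and at 1091, 1290 and 1947 CPM in the controls, a ratio of 1.00 with an interval of 0.29 to 1.72. miR-126a-3p was at 255 CPM and at 116, 302 and 329 CPM in the controls, within their range. No call of these lists held in the scaling without miR-486b-5p.

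Muscle and liver markers differed in level. miR-133a-3p, of striated muscle, was at 1104 CPM in SE 4 h and at 888, 793 and 75.5 CPM in the controls, a ratio of 0.31. miR-122-5p, the defining miRNA of hepatocytes, had 59 counts in SE 4 h and 0 in each of the 3 controls, at 13.9 CPM, below the limit for description. The related miR-192-5p and miR-215-5p, of liver and gut, had ratios of 0.78 and -0.13. Of the 6 epithelial miRNAs counted, 3 were described. miR-205-5p was lower by 1.5-fold, at 130 CPM against 227 CPM in control 4 h, within the range of the controls, and miR-141-3p and miR-203-3p had ratios of 0.09 and 0.21.

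Of 12 neuronal miRNAs counted in the series, 11 were under the limit for description, where 116 of all 640 were described. Of the 12, 6 had 3 counts or fewer in SE 4 h and 8 in control 4 h, miR-124-3p with 0 counts in SE 4 h and all 3 controls among them. Of all 640 miRNAs, 399 had any count in SE 4 h and 232 in control 4 h, so that absence was common among all of them. miR-9-5p had 136 counts in SE 4 h, about 4 units, against 122 and about 1 unit in control 4 h. Only miR-128-3p was described, at 1332 CPM in SE 4 h and at 1072, 1431 and 2273 CPM in the controls, within their range. miR-132-3p, which neuronal activity induces, had 196 counts in SE 4 h and 0 in each of the 3 controls, at 46 CPM, under the limit. The imprinted Dlk1-Dio3 cluster on chromosome 12, active in brain and placenta, had 6 members among the 116, with ratios from -1.71 to 0.70 and a median of 0.05. miR-381-3p was the lowest of them, at 185 CPM in SE 4 h, and at 605, 87 and 31.2 CPM in the controls. miR-300-3p, 2507 bases away, was at 108 CPM and at 66.6, 42.9 and 0.253 CPM in the controls.

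The study's annotation of 155 miRNAs by tissue and brain cell was drawn up for miRNAs of these libraries and is not independent of them. Of 26 miRNAs annotated to brain among the 116, 11 were higher by 1.5-fold and none lower, where 31.9% of all 116 were higher and 18.1% lower, with a median ratio of 0.43, and 12 lay above all 3 controls. The 11 included miR-186-5p, miR-143-3p, miR-29a-3p, both arms of miR-30a, miR-199b-3p, miR-101a-3p and miR-27b-3p, several of which are also known from vessels, muscle or many tissues. Without miR-486b-5p, 6 of the 11 kept the call and the median turns negative. Read against the same shares of the 116, those annotated to neurons were 20, with 5 higher and 3 lower, those to astrocytes 14 with 5 and 1, those to microglia 13 with 6 and none lower, and those to oligodendrocytes 7 with 3 and none lower. All 7 of oligodendrocytes lay above all 3 controls with TMM scaling, by ratios to control 4 h as small as 0.07 for miR-423-3p, which turns negative in each other scaling. The 76 with any entry had 29 higher and 5 lower and a median of 0.32, and the 40 without an entry had 8 higher and 16 lower and a median of -0.40. In every scaling the 76 kept 12 higher and 5 lower calls and the 40 kept 2 higher and 16 lower ones, and the median of the 76 turns negative without miR-486b-5p.

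GC content and ratio were weakly related, in a direction that depended on the control. Over the 98 miRNAs with a sequence, Spearman's rho of GC content and ratio was -0.27 against control 4 h, 0.16 against control 8 h and 0.15 against control 24 h. The points share the SE 4 h library, and no p is given. The 20 miRNAs of 55% GC or more had a median ratio of -0.35, with 2 higher and 7 lower, against 0.49 for the 22 of 40 to 45%. Over all 116, 31.9% were higher and 18.1% lower. Set against control 8 h and control 24 h, the same 20 had medians of 0.47 and 0.15. With plain library sizes both of these medians are negative. The TMM factors were 0.788 for SE 4 h and 1.22 and 1.16 for those controls. The 3 richest in GC, miR-2137 (85.7%), miR-6236 (78.9%) and miR-6240 (69.2%), were lower against all 3 controls. The part of GC content in the differences from control 4 h was not tested.

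**Figure D4:**
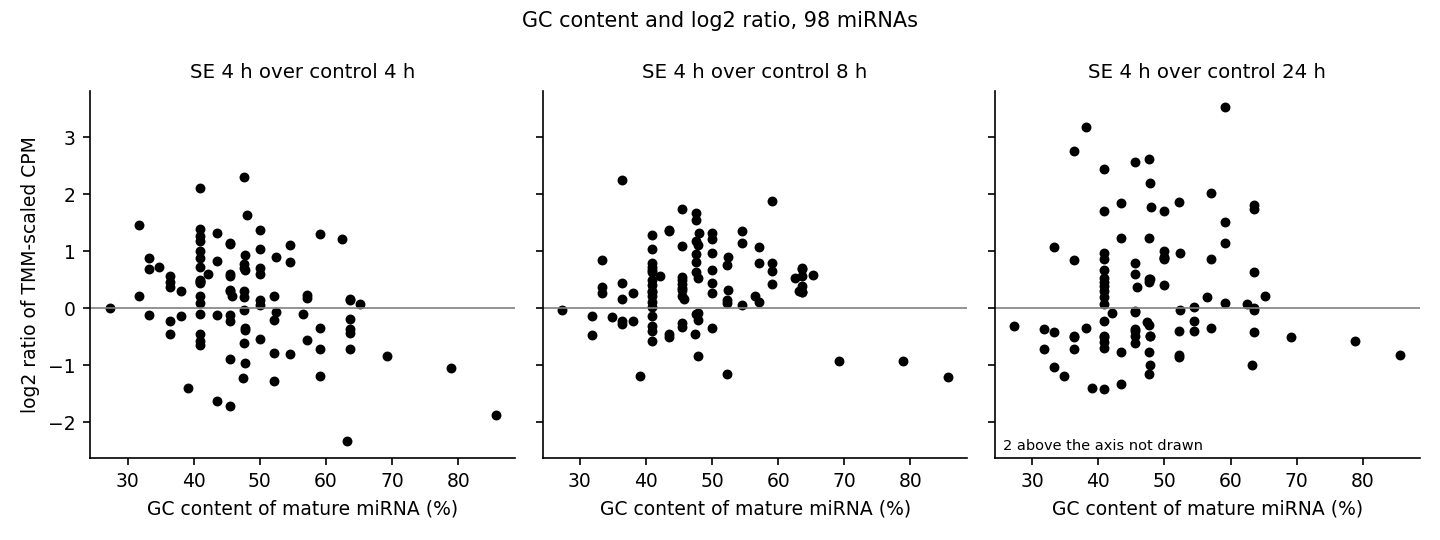
GC content of the mature miRNA in percent (horizontal) and log2 ratio of SE 4 h over control 4 h, control 8 h and control 24 h (vertical), for the 98 miRNAs with a RefSeq sequence. The ratio leans down with GC against control 4 h only (rho -0.27, 0.16 and 0.15), and the 3 points of highest GC lie below 0 in each.

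Reads in control 4 h were thin for many of the 116. In that library 59 of them had fewer than 10 units, against 6 in SE 4 h. Over the 57 with 10 units or more in both, 17 were higher by 1.5-fold and 9 lower, and 14 and 8 also lay outside all 3 controls. The 8 lower ones were miR-5112, miR-1957a, miR-5108, miR-320-3p, miR-6236, miR-6240, let-7b-5p and miR-130a-3p. The higher ones included miR-143-3p, miR-182-5p and miR-10a-5p, which also held in every scaling and above all controls.

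Of the miRNAs absent from control 4 h, defined as 3 counts or fewer there, 8 reached 50 CPM in SE 4 h. miR-144-3p, an erythroid miRNA on chromosome 11 (78073047 to 78073066, plus strand), had 1407 counts in SE 4 h and 0 in control 4 h, at least 1.88-fold higher against a floor of 3 units. In control 8 h and control 24 h it was at 155 and 414 CPM, and its 330 CPM in SE 4 h lay between them. miR-144-5p, from the same hairpin, had 779 counts in SE 4 h against 1 in control 4 h, and was at 183 CPM against 197 and 185 CPM in the later controls. miR-222-3p, of endothelium, had 930 counts and 0, and was at 218 CPM against 85.6 and 245 CPM. miR-215-3p had 338 counts and 1, and was at 79.4 CPM against 152 and 77.3 CPM. For these 4, control 4 h was the lowest control, and SE 4 h lay within the controls. Against the floor of 3 units, the bound was 1.24-fold for miR-222-3p and 1.04-fold for miR-144-5p. For miR-215-3p it was 0.451-fold, so that its 1 count does not set control 4 h apart.

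The other 4 lay above all 3 controls in SE 4 h. miR-148a-5p had 331 counts in SE 4 h against 0 in control 4 h, and was at 77.7 CPM against 25.7 and 29.1 CPM in control 8 h and control 24 h. miR-106b-5p had 329 and 0, and was at 77.3 CPM against 10.7 and 28.9 CPM. miR-540-3p, of the Dlk1-Dio3 cluster, had 315 and 0, and was at 74 CPM against 12.1 and 0 CPM. miR-100-5p had 312 and 1, and was at 73.3 CPM against 37.6 and 57 CPM. Each of the 4 had 8 or 9 units in SE 4 h, and miR-100-5p lay below control 24 h with plain library sizes. Against a floor of 3 units in control 4 h, their bounds were 0.416-fold to 0.441-fold. The counts in control 4 h thus do not show that SE 4 h was higher than that library. None of the 8 was absent from all 3 controls, and 7 of them had more than 3 counts in both later controls. At any level, 190 miRNAs had more than 3 counts in SE 4 h and 3 or fewer in control 4 h, and 12 the reverse.

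The 4 absent from SE 4 h were miR-8101, miR-7018-5p, miR-27b-5p and miR-125a-3p. They had 116, 115, 111 and 108 counts in control 4 h, each about 1 unit there, and 0 counts in SE 4 h. miR-8101 was also counted in control 8 h and control 24 h, at 22 and 22.8 CPM, and in SE 8 h, at 13.7 CPM. miR-27b-5p had 0 counts in each of the other controls. Of the 4, 3 had 3 counts or fewer in every other SE library.

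Just outside the limit lay miR-133b-3p, with 101 CPM of the plain total in SE 4 h against 48.5 in control 4 h, and miR-301a-3p, with 105 and 46. Just inside lay miR-30a-3p, with 122 and 50.9, and miR-5107-5p, with 53.7 and 83.2. A further 37 miRNAs reached 50 CPM in 1 of the 4 h libraries with more than 3 counts in both, 8 of them in SE 4 h, the other 29 in control 4 h.

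The later SE pools, each with its own control, share no library with the 4 h pair. Their ratios are on the TMM scale. The factors were 0.754 for SE 24 h and 1.16 for control 24 h, so that plain library sizes lower every ratio at 24 h. At 8 h the factors lay closer together, at 1.15 for SE and 1.22 for control. Of the 37 miRNAs higher at 4 h, 18 were also higher by 1.5-fold at 8 h (48.6%) and 1 was lower, where 25.9% of the 116 were higher and 12.9% lower. At 24 h, 9 of the 37 were higher (24.3%) and 3 lower, where 21.6% of the 116 were higher and 17.2% lower. Of the 21 lower at 4 h, 7 were lower at 8 h (33.3%) and 9 at 24 h (42.9%). The share of the 37 that was higher again was thus near that of all 116 at 24 h and above it at 8 h. Spearman's rho with the 4 h ratios was 0.28 at 8 h over 116 miRNAs and 0.28 at 24 h over 114, as a description of points that share the scaling and include relatives with near-identical sequences.

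At all 3 time-points, 7 miRNAs were higher by 1.5-fold and 5 lower. The 7 were miR-152-3p, miR-182-5p, miR-532-5p, miR-30a-3p, miR-10b-5p, miR-107-3p and miR-300-3p. Both miR-30a-3p and miR-300-3p had 1 unit in control 4 h, with intervals of -1.32 to 6.74 and -1.91 to 6.27. At 24 h miR-300-3p had 111 counts in SE and 1 in control. miR-152-3p had log2 ratios of 2.31, 0.95 and 0.94 at 4 h, 8 h and 24 h, and miR-182-5p of 1.64, 1.14 and 1.12. With plain library sizes miR-152-3p, miR-182-5p, miR-532-5p and miR-10b-5p were not higher by 1.5-fold at 24 h. The 5 were miR-5112, miR-2137, miR-1957a, miR-6240 and miR-320-3p. miR-5112 had log2 ratios of -1.84, -1.07 and -2.82, and miR-320-3p of -1.17, -0.79 and -1.67. miR-143-3p, by contrast, was at 1.67, 0.75 and 0.29, and miR-10a-5p at 1.33, 0.80 and 0.24, values that were lower at each later time-point, with 1 pool each and no test of the difference.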

How the data were processed

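Ago2 was immunoprecipitated from pooled mouse plasma and its small RNA sequenced. In Chimera, the authors removed adapters, kept reads of miRNA size, aligned these to mouse miRBase with BLASTn and 2 mismatches allowed, and deposited raw counts of reads per mature miRNA in 7 libraries. The version of Chimera is not given in the sources used here. No column of samples was left unused (0).

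From the deposited counts, CPM, shares and intervals were computed with Python 3.11.15, scipy 1.17.1, numpy 2.4.6 and pandas 2.3.3, and plotted with matplotlib 3.10.9. Levels are CPM on TMM-adjusted library sizes, with factors over all 7 libraries from edgeR 4.0.16 (R 4.3.3, limma 3.58.1), which were 0.788 for SE 4 h, 0.853 for control 4 h, 1.22 for control 8 h and 1.16 for control 24 h. Totals per library were between 2043220 and 5405357 counts, and the floor of 3 counts was worth 0.705 CPM for SE 4 h, 1.72 CPM for control 4 h. The value around which low counts gathered was the mode of a kernel density of log counts (6 to 300, bandwidth 0.15), and units are counts divided by it. Intervals are exact binomial 95% intervals on units and, like the floors, cover counting error only.

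Each group holds 1 pooled library, so SE 4 h was described against control 4 h by a fold of 1.5 and by its place among the 3 controls, with no test. The exact test of edgeR at a BCV (biological coefficient of variation) of 0.1, which the study set without replicates, and at 0.4, and the size factors of DESeq2 1.42.0, were alternatives. The miRNAs named are the 12 largest and 12 smallest ratios among those outside all 3 controls, the 10 most abundant, those absent from one side, members of the lists described, and those nearest the 50 CPM limit. Members and lists were chosen with earlier results of these data known, and miR-5119, miR-381-3p, miR-130a-3p, pairs on one chromosome and relatives with one seed were named after their values were seen. Sequences are from RefSeq (GRCm38.p6) and overlaps with genes from GENCODE on GRCm38. Not analysed here were miR-31-3p, miR-135b-5p, miR-135a-5p and miR-132-5p.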

Additional observations from a re-analysis of the deposited data

Results flagged for a closer look

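With TMM scaling, 10 differences at the later time-points lay past 1.5-fold in the direction opposite to that at 4 h. Each is 1 pool against 1 pool, and the difference between time-points was not tested. At 8 h these were miR-130b-3p (-0.62 on the log2 scale, against 0.61 at 4 h), miR-342-3p (1.32, against -1.27 at 4 h) and miR-205-5p (1.44, against -0.80 at 4 h). At 24 h, miRNAs that were lower at 4 h and higher later were miR-181a-2-3p (0.83, against -0.71), miR-5108 (0.73, against -1.23), miR-1843b-5p (0.93, against -0.60) and miR-574-3p (0.77, against -1.18). With plain library sizes none of these was higher by 1.5-fold at 24 h. Those higher at 4 h and lower at 24 h were miR-142a-3p (-0.98, against 0.72), miR-24-3p (-0.69, against 0.82) and miR-125b-5p (-1.55, against 0.61). Of the 10, miR-5108 was the one that lay below all 3 controls at 4 h with 10 units or more in both 4 h libraries.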

How the results depend on the processing

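Scaling, the rule for a difference and the definition of absence each moved the numbers. With library size only, 19 miRNAs lay above all 3 controls, 34 below, and 11 were both higher by 1.5-fold and above all controls. With library sizes that left out miR-486b-5p, 14 were higher and 48 lower, 14 lay above and 45 below all controls, 8 and 32 met both criteria, and the median ratio was -0.34. A limit of 10 CPM gave 46 lower, one of 100 CPM 23 higher and 13 lower, and a threshold of 2-fold 18 and 12. Against control 8 h 8 were lower, and against the sum of the 3 controls 12. The exact test at a BCV of 0.4 gave 3 higher and 4 lower at an unadjusted p of 0.05, and at 0.1 it gave 37 and 21. Over the 57 miRNAs with 10 units in both libraries, a limit chosen after seeing the data, 17 were higher and 9 lower, 24 lay above and 12 below all controls, and 14 and 8 met both criteria. Of miRNAs absent from control 4 h there were 5 when absence meant 0 counts, 69 at 10 CPM and 190 at any count above the limit, and 0 absent from all 3 controls, chosen after seeing the data. Of those absent from SE 4 h there were 11 at 10 CPM and 12 at any count, and 0 with 50 CPM in all 3 controls, also chosen after seeing the data. No ratio to control 4 h that was past 1.5-fold changed sign under another scaling or a prior count of 2. With TMM scaling, the 8 lower miRNAs within the range of the controls, miR-381-3p and miR-5119 among them, were higher than control 8 h. With plain library sizes miR-5119, miR-744-5p and miR-574-3p were lower than control 8 h. No paired analysis was possible because the 4 h comparison had 1 library a side, and a block by time-point over the 3 pairs would test SE over all time-points, not at 4 h. Depth limits control 4 h most, where 59 of the 116 miRNAs had fewer than 10 units.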
